A study of Mus musculus with 51 samples.

Results

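The Hippo effectors Yap1 and Wwtr1, the 4 Tead genes and 4 of their established targets, Cyr61, Ctgf, Amotl2 and Ankrd1, were examined in H3K27ac and H3K4me1 ChIP-seq peaks during astroglial differentiation of mouse embryonic stem cells (ESCs). The genes were chosen by name and are 10 of the 22359 protein-coding genes in the mouse annotation used. Every peak that overlapped the mm9 gene body of one of these genes, or 20 kb on either side of it, was taken. The windows held 90 of 79413 H3K27ac peaks in astrogliogenic neural precursor cells (aNPC), 111 of 83433 in early astrocytes (eA) and 113 of 92700 in late astrocytes (lA). For H3K4me1 they held 154 of 154238 peaks in aNPC, 187 of 185478 in eA and 194 of 208333 in lA.

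All cells were derived from ESCs of the C57/BL-6 background. The aNPC were grown in DMEM-F12 with N2, EGF and FGF-2, and were then placed in DMEM with FBS and LIF for 1 day to give eA or for 5 days to give lA. Each of the 6 lists was called on the merged reads of 2 replicates, so no value below has a replicate error and no difference between stages could be tested. The read depth is not in the lists. The −log10 q of a peak was therefore never compared between lists, and a peak is placed by its rank within its own list counted from the top, which itself depends on the depth and the length of the list. The labelled cell identity was checked against the promoters of marker genes. H3K27ac was found at the promoters of 4, 4 and 5 of 7 astrocyte markers in aNPC, eA and lA, at 4 of 4 neural progenitor markers and 2 of 4 neuronal markers at every stage, and at 0 of 5 oligodendrocyte, 0 of 4 microglial and 0 of 3 pluripotency markers. Over all coding genes the shares were 50.6%, 53.2% and 48.2%. Among the astrocyte markers, Gja1 held a peak in eA and lA, Aqp4 in lA only, S100b in aNPC only and Aldh1l1 at no stage. These few promoters do not by themselves establish the identity of the cells. Of 3 endothelial markers 1 (Kdr), and of 5 fibroblast and mural markers 1 (Acta2), held a promoter peak in eA and lA and not in aNPC, that of Acta2 near the foot of both lists (top 93.1% and 95.6%), and the other markers of these lists held none at any stage. Whether other cells in the cultures had a part in the values below was not tested.

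The Hippo pathway is a kinase cascade that senses cell contact, polarity and tension. When it is active, the Lats kinases phosphorylate YAP (Yap1) and TAZ (Wwtr1) and keep them in the cytoplasm. When it is inactive, both coactivators enter the nucleus and bind DNA through the TEAD transcription factors, whose recognition sequence has GGAATG at its core. YAP and TAZ are widely studied in neural progenitors and in reactive glia, and they often act at enhancers. H3K27ac marks active promoters and enhancers, whereas H3K4me1 without H3K27ac marks enhancers that are poised or primed.

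The sequence immediately upstream of the gene start is shown first, since most members share a short motif there. An exact GGAATG, on either strand, lay within 200 bases upstream of the gene start in 7 of the 9 members examined there, against 8.97% of all coding genes. These 7 were all 4 targets (Cyr61, Ctgf, Amotl2 and Ankrd1), both coactivators (Yap1 and Wwtr1) and Tead3. The windows of Tead2 and Tead4 held no match. A longer core, AGGAATG or TGGAATG, was present in the same 7 members and in 5.48% of coding genes, and 500 bases upstream again gave the same 7, against 22.9%. The AP-1 consensus TGANTCA, which is often found beside TEAD sites in enhancers, was in 0 of the 9 windows and in 4.80% of those of coding genes. The targets are established in part through such sites, so their share is not independent of how they came to be known. A match shows that these letters are present, not that a factor bound there.

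The windows of the 4 targets, from mm9, lie 5′ of the annotated exons and are printed 5′ to 3′ on the strand of the gene, with GGAATG or its reverse complement in capitals. They are chr3:145312950-145313149 (minus strand) for Cyr61, chr10:24315048-24315247 (plus) for Ctgf, chr9:102618802-102619001 (plus) for Amotl2 and chr19:36194335-36194534 (minus) for Ankrd1. Ctgf held 3 matches, whose first bases were at positions -105, -40 and -31 from the gene start. The single matches began at -103 in Cyr61, where the reverse complement is seen, at -64 in Amotl2 and at -123 in Ankrd1.
Cyr61: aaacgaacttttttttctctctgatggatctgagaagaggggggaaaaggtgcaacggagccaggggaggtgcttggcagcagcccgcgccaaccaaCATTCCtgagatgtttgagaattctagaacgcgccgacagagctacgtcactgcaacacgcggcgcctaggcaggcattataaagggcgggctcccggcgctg
Ctgf: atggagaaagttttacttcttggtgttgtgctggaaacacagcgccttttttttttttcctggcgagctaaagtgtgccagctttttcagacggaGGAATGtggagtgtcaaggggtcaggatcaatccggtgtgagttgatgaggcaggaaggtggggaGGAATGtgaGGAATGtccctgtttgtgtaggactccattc
Amotl2: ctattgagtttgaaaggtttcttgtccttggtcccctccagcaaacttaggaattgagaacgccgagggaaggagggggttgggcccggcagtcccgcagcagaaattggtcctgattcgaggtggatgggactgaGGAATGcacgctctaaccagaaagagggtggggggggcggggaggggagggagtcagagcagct
Ankrd1: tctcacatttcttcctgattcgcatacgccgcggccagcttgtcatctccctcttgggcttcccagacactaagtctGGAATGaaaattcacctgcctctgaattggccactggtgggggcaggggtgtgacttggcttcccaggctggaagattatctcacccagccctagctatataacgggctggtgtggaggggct

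The corresponding windows of the coactivators and of Tead3 are shown to compare the genes that encode the complex with its targets. They are chr9:8004597-8004796 (minus) for Yap1, chr3:57379833-57380032 (minus) for Wwtr1 and chr17:28487751-28487950 (minus) for Tead3. Each held 1 match, which began at -141 in Yap1, at -136 in Wwtr1 and at -182 in Tead3.
Yap1: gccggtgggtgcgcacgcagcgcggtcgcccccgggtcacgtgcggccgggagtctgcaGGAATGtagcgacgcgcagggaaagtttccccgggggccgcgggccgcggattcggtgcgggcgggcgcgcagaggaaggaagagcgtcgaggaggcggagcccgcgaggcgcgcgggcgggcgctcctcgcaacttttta
Wwtr1: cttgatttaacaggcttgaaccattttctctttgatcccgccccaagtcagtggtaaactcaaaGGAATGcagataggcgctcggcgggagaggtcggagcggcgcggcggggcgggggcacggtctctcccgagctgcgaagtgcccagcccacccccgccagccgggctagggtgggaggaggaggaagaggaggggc
Tead3: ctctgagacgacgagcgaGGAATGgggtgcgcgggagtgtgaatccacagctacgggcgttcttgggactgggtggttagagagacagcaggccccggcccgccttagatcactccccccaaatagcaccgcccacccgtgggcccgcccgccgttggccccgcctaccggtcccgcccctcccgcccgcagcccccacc

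These upstream windows differed in the marks that covered them. The 200 bases of Yap1 lay wholly under H3K27ac peaks in aNPC and eA, with 71 of them covered in lA. Those of Wwtr1 were covered over 200, 147 and 78 bases in aNPC, eA and lA, with 27 bases under H3K4me1 in aNPC. In Tead3 the H3K27ac cover was 91, 128 and 97 bases, and 76 bases lay under H3K4me1 in aNPC. In Amotl2 and Ankrd1 no peak of either mark reached the window at any stage. In Ctgf the window was free of H3K27ac in aNPC and eA and had 8 covered bases in lA, while 129 bases lay under an H3K4me1 peak in aNPC only. In Cyr61 the H3K27ac cover was 125 bases in aNPC, 0 in eA and 14 in lA, while the main peak of the later stages lay over the start of the gene body.

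Next, promoters were compared, taken from 1 kb upstream to 100 bp downstream of any start site of a coding transcript. An H3K27ac peak was found at the promoters of 7, 9 and 8 members in aNPC, eA and lA. The shares over all coding genes were 50.6%, 53.2% and 48.2%. Yap1, Wwtr1, Tead2, Tead3, Tead4, Cyr61 and Amotl2 held one at all 3 stages, as did 45.2% of coding genes, and Ankrd1 held none at any stage, as did 44.2%. From aNPC to eA, 2 members, Tead1 and Ctgf, gained a promoter peak, against 4.23% of coding genes, and from eA to lA 1 member, Tead1, lost it, against 6.29%. Both changes depended on how the promoter was defined. With a promoter of 1 kb on each side of any start site, 0 members gained and 0 lost a peak, since this wider promoter, which also takes in start sites of non-coding transcripts of a gene, reached peaks inside Tead1 and Ctgf at all 3 stages.

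H3K4me1 was present at the promoters of 9 members at each stage, against 55.4%, 53.6% and 52.7% of coding genes in aNPC, eA and lA. It was found at all 3 stages in 8 members, against 46.7% of coding genes. The strongest such peak of Tead1 in eA was weak (−log10 q 4.67, top 81.6%). Where only peaks with a −log10 q of 5 or more were counted, 7 members held H3K4me1 at the promoter in eA. Ctgf was without it in eA alone, so that it was 1 member of those that lost a peak from aNPC to eA (4.94% of coding genes) and of those that gained one from eA to lA (4.14%). Ankrd1 held a single peak of 184 bp in eA, near the foot of its list (−log10 q 3.32, top 95.2%), and so gained a peak from aNPC to eA (3.07% of coding genes) and lost it by lA (4.99%).

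**Figure D1:**
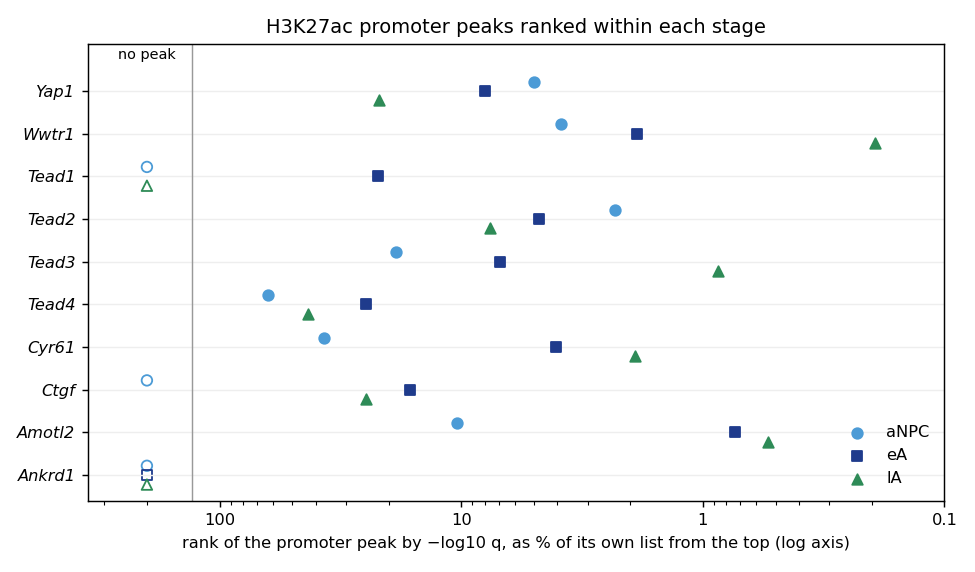
Rank of the strongest H3K27ac promoter peak of each member, as a percentage of its own list counted from the top (log axis, stronger to the right), in aNPC (circles), eA (squares) and lA (triangles), with 1 merged list per stage; open symbols on the left mark stages without a promoter peak. Wwtr1, Tead3, Cyr61 and Amotl2 stand further right at each later stage, and Yap1 and Tead2 further left.

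The peak cover of the whole windows placed most members above the typical coding gene. The median share of a window under H3K27ac peaks was 4.87%, 5.35% and 6.71% in aNPC, eA and lA over the 10 members, beside 2.47%, 2.80% and 2.70% over all coding genes with windows made in the same way. For H3K4me1 the medians were 8.08%, 10.9% and 11.3%, beside 5.11%, 6.13% and 6.36%. Ankrd1 lay under the median of coding genes for both marks at all 3 stages. Ctgf did so for H3K27ac in eA and for H3K4me1 in lA, Tead2 for both marks in lA (2.65% and 6.19%), and Tead4 for H3K27ac in eA (2.69%).

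**Figure D2:**
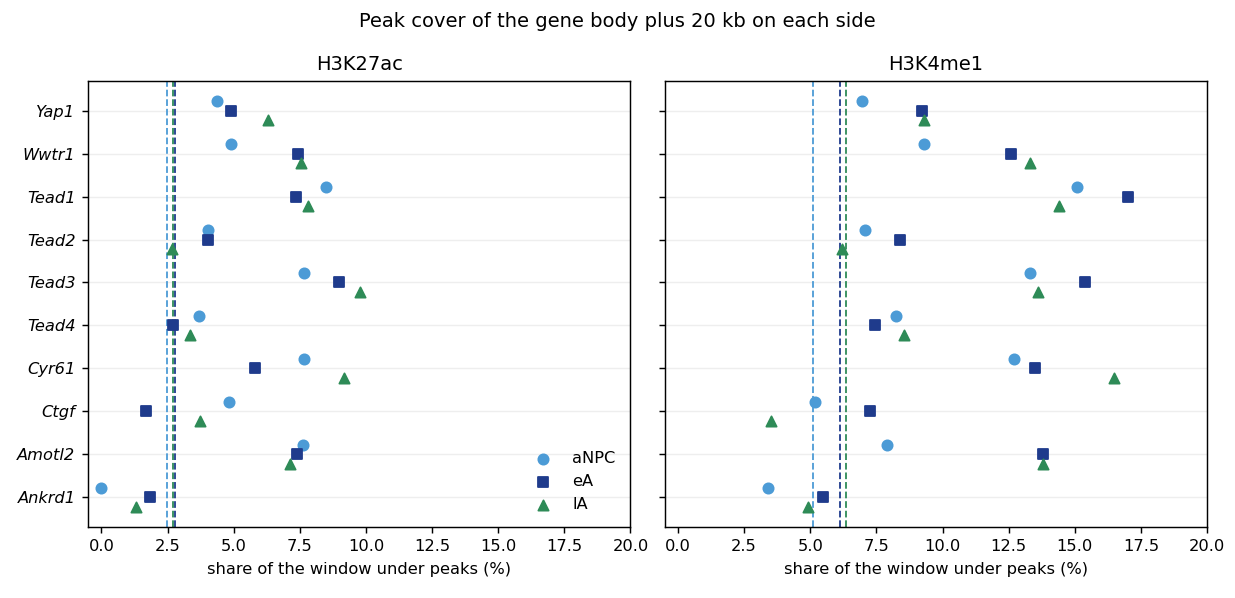
Share of each member's window (gene body plus 20 kb on each side) under H3K27ac peaks (left) and H3K4me1 peaks (right) in aNPC (circles), eA (squares) and lA (triangles); dashed lines give the median over 22359 coding genes at each stage. Tead1 has the highest H3K4me1 cover in aNPC and eA (15.1% and 17.0%), and Ankrd1 has the lowest H3K27ac cover in aNPC and lA (0 and 1.29%).

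Yap1 encodes the coactivator YAP. Its gene body lies on the minus strand of chromosome 9, at 7931999 to 8004596, and its window held 9, 11 and 15 H3K27ac peaks in aNPC, eA and lA. The promoter peak in aNPC spanned 1898 bp and ranked in the top 4.98% of its list. In eA it spanned 2283 bp and ranked in the top 7.96%. The lA list split this region. The strongest peak there to touch the promoter ranked in the top 21.8%, and a peak of 1452 bp just inside the gene, with its summit at 0.5 kb, ranked in the top 8.57%. The gene start thus stood lower in its list at each later stage, whichever lA peak is taken, while the number of peaks in the window was highest in lA.

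Of the 13 distal H3K27ac elements of Yap1, 7 were present at all 3 stages, 2 in eA and lA, 1 in eA only, 2 in lA only and 1 in aNPC and lA. An element is a stretch of overlapping H3K27ac peaks of the stages, away from the promoters of all coding genes. Close neighbours that do not overlap count as separate elements, even where they share one H3K4me1 peak. In all, 4 of the 13 lay between 42.2 and 44.3 kb inside the gene, at or beside the strongest H3K4me1 peak of the window, which ranked in the top 8.76%, 4.99% and 4.75% in aNPC, eA and lA. An intronic element of 1046 bp at 35.9 kb (chr9:7968165-7969210) held H3K4me1 at all 3 stages, and H3K27ac only in eA (top 30.0%) and lA (top 39.9%). Upstream, at -13.1 kb, a narrow element of 322 bp (chr9:8017565-8017886) ranked in the top 9.25%, 15.2% and 36.5% for H3K27ac and held no H3K4me1 peak at any stage.

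Wwtr1 encodes TAZ, the paralogue of YAP. It lies on the minus strand of chromosome 3 at 57259571 to 57379832, and its H3K27ac peaks numbered 10, 27 and 24 in aNPC, eA and lA. The share of its window under H3K27ac was 4.90%, 7.43% and 7.56%. Between aNPC and eA this share was 2.53 percentage points higher, and 7.52% of coding genes had a greater difference. The promoter peak ranked in the top 3.86%, 1.88% and 0.194% in aNPC, eA and lA. The lA summit lay at -340 bp and that of eA at -327 bp, and both lists also held a promoter peak with its summit inside the gene, at 285 bp in eA (top 3.40%) and 291 bp in lA (top 1.35%). In aNPC a single peak of 1987 bp had its summit 336 bp inside the gene.

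Wwtr1 held 33 distal H3K27ac elements, of which 20 were first seen in eA, 10 of them kept in lA and 10 not. This made 12.5 such elements per 100 kb of window, a density exceeded in 0.179% of coding genes. A further 4 elements were seen in lA only, 4 were present at all 3 stages, 2 in aNPC only, 1 in aNPC and eA and 2 in aNPC and lA. Of the 24 elements first seen after aNPC, 10 already lay under an aNPC H3K4me1 peak, 8 first had H3K4me1 in eA, 1 in lA, and 5 had no H3K4me1 peak at any stage. Of the 20 elements first seen in eA, 6 had an eA −log10 q under 5, so that their number rests in part on weak peaks.

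The main one among them was an intronic element of 1667 bp at 63.6 kb (chr3:57315405-57317071). No H3K27ac peak was called there in aNPC, whereas it ranked in the top 20.8% in eA and the top 5.46% in lA. H3K4me1 covered it at all 3 stages (top 12.7%, 5.62% and 6.65%). A neighbour at 65.7 kb (chr3:57313904-57314343) followed the same order, with no H3K27ac peak in aNPC, the top 24.7% in eA and the top 18.5% in lA. Elements at 45.2, 25.0 and 10.7 kb likewise held H3K4me1 at all 3 stages and H3K27ac in eA and lA. In the opposite direction, an element of 911 bp at 112.1 kb (chr3:57267314-57268224) held H3K27ac in aNPC only (top 42.1%), and one of 1588 bp at 71.1 kb (chr3:57307891-57309478) ranked in the top 25.2% in aNPC, was absent from the eA list and stood near the foot of the lA list (top 99.3%).

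**Figure D3:**
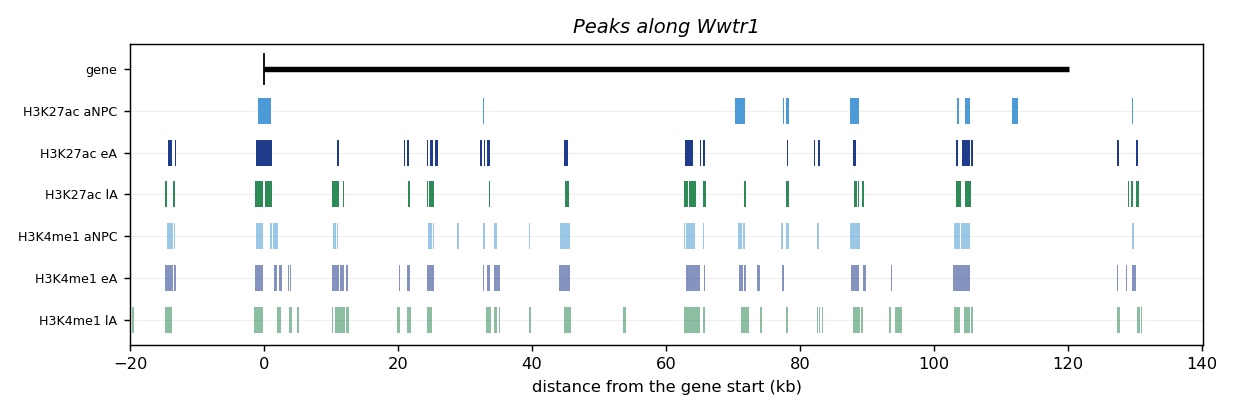
H3K27ac (upper 3 rows) and H3K4me1 (lower 3 rows) peaks along Wwtr1 in aNPC, eA and lA, drawn to scale by distance from the gene start in kb, with the gene body as a black line. The eA and lA rows hold H3K27ac peaks at 10.7, 25.0, 45.2 and 63.6 kb where the aNPC row holds H3K4me1 peaks and no H3K27ac peak.

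Tead1, the TEAD factor with the longest gene here, lies on the plus strand of chromosome 7 at 119822832 to 120050319. Its window held 36, 41 and 35 H3K27ac peaks and 60, 67 and 73 H3K4me1 peaks in aNPC, eA and lA, the most of any member in each list. The promoter itself had an H3K27ac peak in eA only (605 bp, top 22.1%). A peak that began about 0.3 kb inside the gene was present at all 3 stages (chr7:119823133-119825054) and ranked in the top 13.0%, 6.69% and 8.45%, with no H3K4me1 peak over it. This peak lay outside the promoter as defined here and was counted as a distal element.

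Of the 48 distal H3K27ac elements of Tead1, 19 were present at all 3 stages, a number reached by 0.107% of coding genes and a density (7.10 per 100 kb) exceeded in 1.78%. A further 10 were seen in eA only, 9 in aNPC only, 5 in eA and lA, 2 in aNPC and eA, 2 in aNPC and lA and 1 in lA only. Of the 16 first seen after aNPC, 14 already held H3K4me1 in aNPC. Some of these were close neighbours under one aNPC H3K4me1 peak, such as those at 73.7 and 74.4 kb and those at 236.5 and 237.1 kb. Others, such as the eA-only element at 81.6 kb, lay beside an element present at all 3 stages. The counts are thus not of independent sites. Of the 15 first seen in eA, 7 had an eA −log10 q under 5. Wwtr1, the other long gene with many late elements, had aNPC H3K4me1 at 10 of 24, and the difference from the 14 of 16 of Tead1 was not tested. A pair of upstream elements at -16.4 kb (chr7:119805917-119806904) and -15.2 kb (chr7:119807085-119808165) held no H3K27ac in aNPC although one aNPC H3K4me1 peak (top 13.0%) spanned both. They ranked in the top 11.8% and 8.45% in eA and 6.73% and 8.73% in lA, and the first was the strongest H3K27ac peak of the window in lA. In aNPC the strongest was an intronic element at 18.0 kb (chr7:119839944-119841640), which ranked in the top 5.15% in aNPC, in the top 17.9% in lA and lower than in lA in eA. The strongest aNPC H3K4me1 peak lay at an intronic element at 204.9 kb (chr7:120026764-120028687). It ranked in the top 0.442%, and H3K27ac there ranked in the top 14.4%, 41.5% and 37.2%.

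Tead2, the TEAD gene known for its expression in early embryos and neural progenitors, lies on the plus strand of chromosome 7 at 52471123 to 52489005, in a window shared with Ccdc155, Cd37 and Dkkl1. Its promoter H3K27ac peak ranked in the top 2.32%, 4.77% and 7.58% in aNPC, eA and lA, and the window held only 3, 3 and 2 H3K27ac peaks in all. The 2 distal elements lay in the bodies of Ccdc155 (aNPC only) and Cd37 (eA only, top 99.0%). The promoter also held H3K4me1 at every stage, in the top 4.34%, 2.68% and 3.01%. This was the only member besides Yap1 whose promoter H3K27ac ranked lower at each later stage.

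Tead3 lies on the minus strand of chromosome 17 at 28468616 to 28487750, beside Fance, Rpl10a and Tulp1. The order of its promoter peaks was the reverse of that of Tead2, with H3K27ac in the top 18.6%, 6.90% and 0.867% in aNPC, eA and lA. Of the 8, 8 and 9 H3K27ac peaks in the window, 5, 5 and 4 lay at promoters of the neighbouring genes. A gene-body element of 324 bp at 6.6 kb was seen in lA only (top 79.9%). So was an intergenic element at -19.9 kb (chr17:28507459-28507800, top 34.9%), which held H3K4me1 in eA and lA. Another, at 21.2 kb in the body of Rpl10a, held H3K27ac in aNPC (top 70.7%) and eA (top 51.8%).

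Tead4, which is best known for its role in the trophectoderm, lies on the minus strand of chromosome 6 at 128174306 to 128250841. Its promoter peak was the weakest of those present at all 3 stages. It spanned 376, 968 and 1085 bp and ranked in the top 63.3%, 24.7% and 43.2% in aNPC, eA and lA. The window held 8, 4 and 7 H3K27ac peaks. Of 7 distal elements, 3 were present at all 3 stages, 3 in aNPC only and 1 in lA only. The element at 4.0 kb (chr6:128246274-128247427) ranked in the top 21.6%, 49.9% and 27.3% for H3K27ac and lay under the strongest H3K4me1 of the window, in the top 0.842%, 0.677% and 3.13%. That at 18.3 kb (chr6:128231789-128233373) ranked in the top 42.2%, 19.2% and 25.9%.

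Cyr61, also called Ccn1, encodes a secreted matricellular protein and is a commonly used readout of YAP and TAZ. It lies on the minus strand of chromosome 3 at 145309935 to 145312949, and its window held 7, 5 and 8 H3K27ac peaks. The promoter peak spanned 761 bp in aNPC and ranked in the top 37.1%. In eA the 2 promoter peaks covered 1602 bp and the stronger ranked in the top 4.04%, and in lA a peak of 1459 bp ranked in the top 1.91%. Its rank thus lay higher at each later stage.

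Both marks were called at all 3 stages at 3 elements of Cyr61, at -3.5 kb (chr3:145316099-145316884), 9.0 kb (chr3:145303525-145304460) and 21.3 kb (chr3:145291348-145291956). The one at -3.5 kb was the strongest H3K27ac peak of the window in aNPC (top 23.6%) and ranked in the top 55.1% and 56.8% later. Of the other 7, 3 were seen in aNPC only and 4 in lA only, and 0 in eA only. Of these 7 peaks, 6 had a −log10 q under 5. From eA to lA the share of the window under H3K27ac went from 5.79% to 9.16%, a difference of 3.37 percentage points that 1.31% of coding genes exceeded.

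Ctgf, also called Ccn2, encodes a related matricellular growth factor. It lies on the plus strand of chromosome 10 at 24315248 to 24318489. In aNPC the strongest of 5 peaks (chr10:24316264-24317367, top 35.4%) lay inside the gene with its summit at 1.8 kb, and no peak lay at the start. In eA the only peak of the whole window (chr10:24315269-24315991, top 16.3%) lay at the start, with its summit 309 bp inside the gene. In lA a peak at nearly the same place (chr10:24315240-24315963, top 24.7%) was joined by 4 distal ones. The H3K27ac cover of the window was 4.84%, 1.67% and 3.74%. From aNPC to eA it was lower by 3.17 percentage points, and 2.96% of coding genes had a greater fall.

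Of the 8 distal H3K27ac elements of Ctgf, 4 were in aNPC only, 3 in lA only and 1 in aNPC and lA. Of the 7 seen at a single stage, 3 had a −log10 q under 5. The element in aNPC and lA lay at 9.5 kb (chr10:24324505-24324908) under H3K4me1 of all 3 stages and ranked in the top 45.0% in aNPC and 61.9% in lA. At -4.5 kb (chr10:24310680-24310897) H3K4me1 was likewise called at all 3 stages, and H3K27ac in lA only, near the foot of the list (top 96.8%). The H3K4me1 cover was 5.19%, 7.27% and 3.52%.

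Amotl2 encodes an angiomotin that binds YAP and activates the Lats kinases, so it acts both as a target and as an inhibitor. It lies on the plus strand of chromosome 9 at 102619002 to 102635748 and has 9 coding start sites. Its window held 4, 10 and 7 H3K27ac peaks. The strongest peak of each stage had its summit 1.4 to 1.5 kb inside the gene, at the promoter of an inner start site, and ranked in the top 10.4%, 0.734% and 0.538% in aNPC, eA and lA. H3K4me1 cover was 7.91%, 13.8% and 13.8%, and the difference of 5.89 percentage points between aNPC and eA was exceeded in 0.599% of coding genes.

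The distal elements of Amotl2 were exchanged between stages, and 0 of the 11 were present at all 3. In aNPC, elements at 7.0 kb (chr9:102625685-102626373), 8.1 kb (chr9:102626702-102627542) and 19.7 kb (chr9:102637988-102639419) ranked in the top 11.4%, 21.3% and 12.0%. The first and second stood in the top 46.9% and 91.9% in eA, and all 3 were without an H3K27ac peak in lA, although the first and second kept H3K4me1 there. Conversely, intronic elements at 9.3 kb (chr9:102627972-102628581) and 10.3 kb (chr9:102629021-102629589) had no aNPC H3K27ac peak. They ranked in the top 32.7% and 63.9% in eA and in the top 36.8% and 23.3% in lA. Over the window, 6 elements were first seen in eA, a number reached by 5.26% of coding genes. Their density was 10.6 per 100 kb, exceeded in 0.474% of coding genes, although 3 of the 6 had an eA −log10 q under 5.

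Ankrd1 encodes a cardiac ankyrin repeat protein that responds to stretch and is used as a YAP and TAZ readout in many cell types. It lies on the minus strand of chromosome 19 at 36186455 to 36194334. No H3K27ac peak lay in its window in aNPC, and 1 lay there in eA and in lA. Both belonged to 1 intergenic element at -14.1 kb (chr19:36207922-36209036), which ranked in the top 33.7% in eA and 46.8% in lA. The same element held H3K4me1 at all 3 stages, in aNPC at the top 50.4%. Ankrd1 was thus the member with no acetylated promoter at any stage despite a GGAATG at -123.

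**Figure D4:**
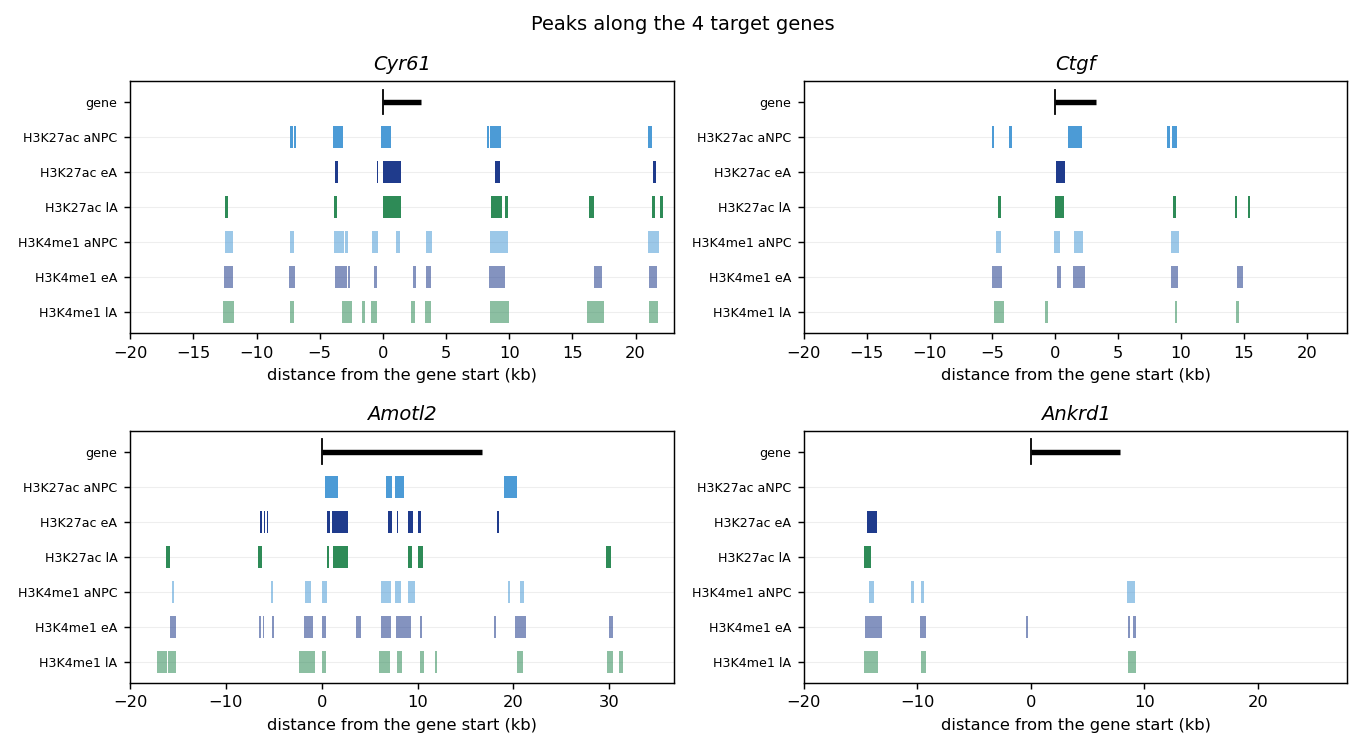
H3K27ac (upper 3 rows of each panel) and H3K4me1 (lower 3 rows) peaks along Cyr61, Ctgf, Amotl2 and Ankrd1 in aNPC, eA and lA, drawn to scale by distance from the gene start in kb, with the gene body as a black line. The H3K27ac peak at the start of Ctgf is present in eA and lA, and Ankrd1 has 1 distal element in eA and lA and no H3K27ac peak in aNPC.

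The distal elements of the 10 members were then counted together and set beside all 115804 distal H3K27ac elements of the genome. The members held 136. Of these, 23 (16.9%) were in aNPC only, against 23.9% of the genome. In all, 36 (26.5%) were present at all 3 stages, against 19.2%, and 25 (18.4%) were in eA only, against 11.8%. Where only peaks with a −log10 q of 5 or more were counted, 15 of 102 (14.7%) were in eA only, against 11.1%. The remaining groups were 21 in eA and lA (15.4%, against 15.3%), 19 in lA only (14.0%, against 21.7%), 6 in aNPC and eA (4.41%, against 4.55%) and 6 in aNPC and lA (4.41%, against 3.63%). Tead1 and Wwtr1 gave 20 of the 25 elements seen in eA only and 23 of the 36 seen at all 3 stages, but 11 of the 23 seen in aNPC only and 5 of the 19 seen in lA only.

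**Figure D5:**
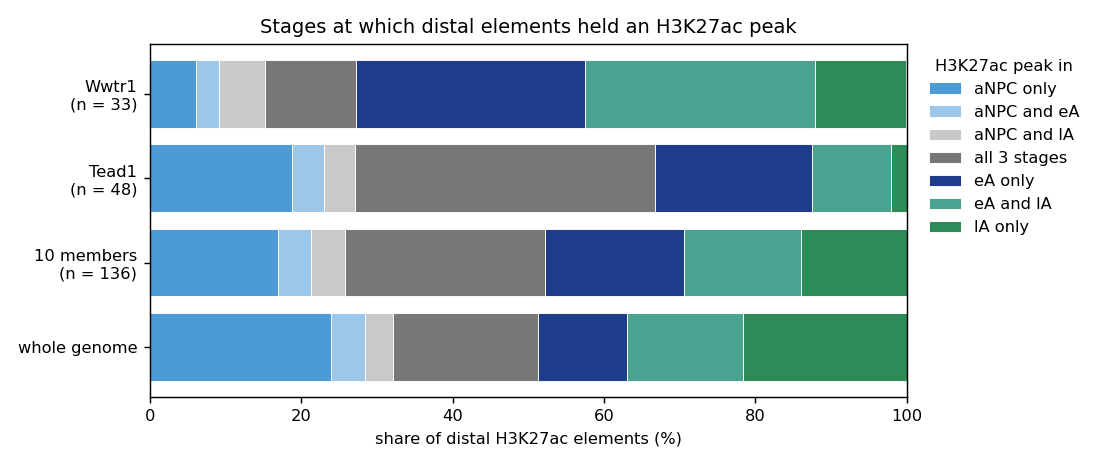
Share of distal H3K27ac elements (%) by the stages at which they held a peak, for Wwtr1 (n = 33), Tead1 (n = 48), the 10 members together (n = 136) and the whole genome. Elements first seen in eA make up the largest share in Wwtr1, and elements present at all 3 stages in Tead1.

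Of the 65 member elements first acetylated after aNPC, 31 (47.7%) already lay under an aNPC H3K4me1 peak, and the share over the genome was 49.2%. Beside these, 18 first had H3K4me1 in eA, 5 in lA and 11 at no stage. Of 29 aNPC elements without H3K27ac in lA, 14 (48.3%) still held H3K4me1 in lA, against 54.9% of the genome. Among the 205 distal H3K4me1 elements of the members, 103 (50.2%) held no H3K27ac at any stage, against 61.6%. The share with earlier H3K4me1 thus lay near the background for the members as a group. Among the members with at least 5 elements first acetylated after aNPC, the counts were 1 of 8 in Amotl2, 1 of 5 in Yap1, 10 of 24 in Wwtr1 and 14 of 16 in Tead1. Neighbouring elements can share one H3K4me1 peak, so these are not counts of independent sites.

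The TEAD core was then counted at the summits of the members' H3K27ac peaks, where in windows of 200 bp its share lay near that of all peaks. GGAATG lay within the 200 bp around the summit in 10 of 90 peaks in aNPC, 12 of 111 in eA and 12 of 113 in lA. Over all H3K27ac peaks the shares were 11.0%, 10.8% and 11.2%, and those of the members were 11.1%, 10.8% and 10.6%. TGANTCA lay in 8, 6 and 9 of them, against 5.83%, 5.70% and 5.67% of all peaks. Overlapping peaks of different stages share sequence, so these counts are not independent of each other.

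The summit windows of 4 elements with GGAATG are shown: 3 belong to distal elements described above, and 1 is an example with a match at the summits of all 3 stages. They are printed from mm9 on the strand of the gene, with the match in capitals. The first, chr19:36208327-36208526 (minus), is the eA summit of the acetylated element of Ankrd1 and holds 2 matches. The second, chr3:57368660-57368859 (minus), is the lA summit of the Wwtr1 element at 10.7 kb. The third, chr9:102628319-102628518 (plus), is the eA summit of the Amotl2 element at 9.3 kb. At the other stage with H3K27ac, the summit windows of these 3 elements (lA for Ankrd1 and Amotl2, eA for Wwtr1) held no GGAATG. The fourth, chr7:119932313-119932512 (plus), is the aNPC summit of a Tead1 element at 109.7 kb, whose eA and lA summit windows also held GGAATG and whose H3K27ac and H3K4me1 were called at all 3 stages. The same held for the Yap1 element at 42.9 kb (chr9:7961449-7961890), which is not printed.
Ankrd1 element: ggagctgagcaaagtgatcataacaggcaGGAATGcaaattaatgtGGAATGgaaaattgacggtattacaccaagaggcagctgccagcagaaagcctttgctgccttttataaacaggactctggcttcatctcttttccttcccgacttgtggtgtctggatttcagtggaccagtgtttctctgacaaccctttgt
Wwtr1 element: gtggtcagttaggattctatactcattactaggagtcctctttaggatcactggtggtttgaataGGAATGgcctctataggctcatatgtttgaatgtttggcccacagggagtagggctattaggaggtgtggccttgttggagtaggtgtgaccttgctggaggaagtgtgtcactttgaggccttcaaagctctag
Amotl2 element: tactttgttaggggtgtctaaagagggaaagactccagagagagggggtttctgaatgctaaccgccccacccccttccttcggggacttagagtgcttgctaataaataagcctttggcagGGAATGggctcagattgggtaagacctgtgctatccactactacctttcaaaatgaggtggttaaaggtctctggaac
Tead1 element: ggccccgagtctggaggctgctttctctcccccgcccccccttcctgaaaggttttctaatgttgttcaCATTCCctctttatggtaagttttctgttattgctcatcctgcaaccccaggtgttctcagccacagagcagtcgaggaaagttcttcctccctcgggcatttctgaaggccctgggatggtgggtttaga

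Finally, the promoters of other genes of the pathway were examined from 2 lists. Of 24 upstream kinases, adaptors and regulators, 21, 21 and 20 held promoter H3K27ac in aNPC, eA and lA, and 20 held it at all 3 stages. Over all coding genes the shares were 50.6%, 53.2% and 48.2%, and 45.2% at all 3 stages. Limd1, a scaffold that restrains the Lats kinases, was the one gene whose call differed, with a peak in aNPC (top 11.8%) and eA (top 4.95%) and none in lA. Fat1, Wwc1 and Vgll2 held none. The core kinases Stk3, Stk4, Lats1 and Lats2 and their adaptors Sav1, Mob1a and Mob1b were acetylated at every stage.

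Of 20 further genes often used as YAP and TAZ targets, among them Lats2 and Ptpn14 of the first list, 17, 17 and 15 held promoter H3K27ac in aNPC, eA and lA, and 14 held it at all 3 stages, to be read against the same shares of coding genes. Myof, a membrane repair protein, followed the pattern of Ctgf, with no promoter peak in aNPC, the top 17.5% in eA and the top 79.1% in lA. Foxf2 and Igfbp3 held a peak in aNPC and eA, and Ccnd1, which encodes cyclin D1, in aNPC only (top 10.4%). Nuak2 and Ccdc80 held none at any stage.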

How the data were processed

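H3K27ac and H3K4me1 ChIP-seq of aNPC, eA and lA was used, with 2 replicates per mark and stage. The authors aligned reads uniquely to mm9 with Bowtie, merged the replicates with SAMtools 0.1.19 and ran MACS2 on the merged reads, at default settings and without an input. The deposited lists give each peak's position and summit and a −log10 q-value computed by the authors' peak caller. Mitochondrial peaks were left out. RNA-seq (8 of 51 samples could not be assigned because their labels conflict), knockdown samples and neuronal stages were not analysed here. Genes came from GENCODE annotation on the same build, and sequences from the mm9 genome, read with pysam 0.24.0 in Python 3.11.15. Peaks were joined into elements where they overlapped by at least 1 bp. Counts and ranks were computed for the members and for all coding genes, peaks or elements, and the code was tested on simulated data. Described in the text were all members, the ranks of their H3K27ac promoter peaks, and other pathway genes whose promoter call differed. The strongest peaks of the lists, and distal elements whose H3K27ac differed between stages under H3K4me1 of several stages, were described only in part. Some elements, and the motif search upstream of gene starts, were chosen after values were seen. The sequence upstream of the start of Tead1 is not reported here. The members and gene lists were chosen with earlier results of these data known. With 1 merged list per mark and stage, no test was made.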

Additional observations from a re-analysis of the deposited data

How the results depend on the processing

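Of 119 values recomputed under other settings, 104 stayed within 1.5 times the value reported and 15 did not. This limit is coarse for counts of members, which cannot exceed 10. Members with an H3K27ac promoter peak in aNPC went from 7 to 9 with the wider promoter and still counted as within it. With a promoter of 1 kb on each side of any start site, 0 members gained an H3K27ac promoter peak from aNPC to eA and 0 lost one from eA to lA, in place of 2 and 1; these 2 results, and the motif counts upstream of gene starts, were recomputed with settings chosen after seeing the data. With windows of 50 kb on each side, distal elements numbered 35 in aNPC only, 34 in eA and lA and 31 in lA only. With 5 kb on each side, 8 were in lA only and 40 were first seen after aNPC, 20 of these with H3K4me1 in aNPC. When the −log10 q had to reach 5, 15 elements were in eA only in place of 25. Summit windows holding AGGAATG or TGGAATG numbered 5, 4 and 6 in aNPC, eA and lA against 7.23%, 7.19% and 7.51% of all peaks, and windows of 500 bp with GGAATG 26, 26 and 34 (28.9%, 23.4% and 30.1%, against 25.0%, 26.5% and 26.8%). Lists cut to equal length within a mark moved none of the 24 values recomputed with them by that much. The aNPC list was the shortest of each mark (79413 and 154238 peaks) and was not cut. The counts of aNPC peaks and aNPC promoters among the 24 therefore could not change. The lists carry neither replicates nor read depth, so a peak missing at a stage may be a peak under the caller's limit, and differences in rank between stages have no error.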
